A study of Rattus norvegicus with 7 samples.

Results

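The genes described here are 6 well-known targets of the tumour suppressor p53 (Cdkn1a, Mdm2, Ccng1, Aen, Ei24 and Sesn1) and the 3 genes of the Gadd45 family (Gadd45a, Gadd45b and Gadd45g). They were taken as every probe set of the array whose annotated gene symbol was one of these 9 symbols, which gave 14 of the 31099 probe sets, for 9 of the 14218 genes with a probe set of a single symbol. The rule itself uses no measured value, though the genes were proposed with earlier results of these data known. They were followed in ROE2 cells, a single immortalized epithelial line from the tongue of an 18-day-old fetus of a transgenic Wistar rat. The transgene is the tsSV40 large T-antigen gene, a temperature-sensitive form, so the cells of every array, vehicle included, carry it. Cells grown at the permissive temperature were moved to an intermediate one a day before exposure. They were exposed to 2 mM sodium fluoride (NaF) for 3, 6 and 12 h, against vehicle (sterilized water) for 3, 6 and 12 h and a vehicle control, which is the 0 h sample of the study's methods. Each of these 7 conditions was 1 Affymetrix array hybridized with RNA pooled from 3 independent experiments, so no condition had a replicate array.

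p53 is a transcription factor that is held low by its own target Mdm2 and accumulates when DNA damage or other stress interrupts that loop. Its targets then slow the cell cycle (Cdkn1a), act in apoptosis (Aen) or restrain growth signaling (Sesn1). SV40 large T-antigen binds p53 and blocks its activity. The Gadd45 proteins are small, acidic stress proteins that bind the MAP kinase kinase kinase Map3k4, the mitotic kinase Cdk1 and the replication clamp Pcna. Gadd45a is the member most closely tied to p53, while Gadd45b and Gadd45g are also known as genes induced by cytokines and by other stress signals.

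The promoter windows of the 9 genes are shown first because p53 acts by binding DNA, in promoters and also in introns, which were not searched here. For each gene, RefSeq's window of 250 bases before to 50 bases from the annotated start (rat build GRCr8) was searched on both strands, and all 9 genes had a window. The p53 response element is built from copies of a palindromic decamer, and the full 10-base consensus of that decamer was found in 6 of the 9 windows, those of Cdkn1a, Ccng1, Aen, Ei24, Sesn1 and Gadd45a. Of all 33469 windows, 7.98% held it. The genes were picked as known targets of p53, so this share describes the choice of genes. The stretches around each match are given 5′ to 3′ on the gene's strand, with the decamer in capitals.
Cdkn1a: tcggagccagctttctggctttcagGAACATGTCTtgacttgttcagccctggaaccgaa
Ccng1: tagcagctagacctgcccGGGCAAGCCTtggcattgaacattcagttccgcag
Aen: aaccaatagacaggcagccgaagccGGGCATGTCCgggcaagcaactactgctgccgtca
Ei24: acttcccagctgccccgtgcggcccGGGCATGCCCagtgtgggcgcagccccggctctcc
Gadd45a: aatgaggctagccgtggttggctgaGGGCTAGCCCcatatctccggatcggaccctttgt
Sesn1: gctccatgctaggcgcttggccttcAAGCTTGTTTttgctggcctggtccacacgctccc

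These stretches lie at chr20:7150706-7150765 (plus strand, Cdkn1a), chr10:25685074-25685126 (minus strand, Ccng1), chr1:142224478-142224537 (plus strand, Aen), chr8:44699416-44699475 (minus strand, Ei24), chr4:97486813-97486872 (minus strand, Gadd45a) and chr20:46948522-46948581 (plus strand, Sesn1). Counted from the annotated start, the decamer spans -201 to -192 in Cdkn1a, -232 to -223 in Ccng1, -30 to -21 in Aen, -79 to -70 in Ei24, -48 to -39 in Gadd45a and -172 to -163 in Sesn1. The windows of Mdm2, Gadd45b and Gadd45g held no such decamer. The composite element of ATF4 and C/EBP factors (TGATGCAA or TGATGAAA), present in 1.91% of all windows, was found in 1 of the 9, that of Gadd45g at -122 to -115 on the opposite strand. It is shown in capitals in the following stretch, at chr17:13530441-13530498 (minus strand).
Gadd45g: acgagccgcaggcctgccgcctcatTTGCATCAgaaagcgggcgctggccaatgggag

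The cAMP response element (TGACGTCA, in 1.83% of all windows), the AP-1 site (TGACTCA or TGAGTCA, in 4.63%) and the NF-kB site (in 4.18%) were found in 0 of the 9. A match is a run of letters and not a measured binding site, and a window without a match says only that these letters are not in it. As the array values below show, the 6 genes that share the p53 decamer did not share a direction under NaF.

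Signals are given on the log2 scale, on which a difference of 1 is a 2-fold change, and array medians ran from 5.32 to 5.35. Of 18 epithelial genes with a probe set, 16 had a mean log2 signal of at least 6, led by the basal keratins Krt14 and Krt5, while Krt18 and Krt19 lay below. The summed epithelial signal was 16.04 to 16.29 (log2) in the NaF arrays and 16.29 to 16.33 in the vehicle arrays. At 12 h of NaF, 11 of these 16 were lower and 1 was higher by the test described further on. Of all tested probe sets, 29.5% were lower and 26.9% higher at that time. Of 9 fibroblast, 10 skeletal muscle, 6 leukocyte and 5 endothelial genes, 1, 1, 0 and 0 reached that level. The single fibroblast gene was Vim, also made by cultured epithelial cells, and the single muscle gene was Acta1. At 12 h of NaF the log2 change of Vim was -1.19 and that of Acta1 -1.497 (adjusted p = 0.000299 each in limma). The summed fibroblast signal was 10.30 to 11.41 (log2) in the NaF arrays and 11.38 to 11.45 in the vehicle arrays. The summed muscle signal was 7.77 to 8.17 with NaF and 8.07 to 8.20 with vehicle, the leukocyte signal 6.94 to 7.02 and 6.58 to 6.90, without overlap, and the endothelial signal 5.70 to 5.71 and 5.63 to 5.79. The 3' signal of the beta-actin control probes exceeded the 5' signal by 1.77 to 2.39 (log2) in the NaF arrays and by 1.53 to 2.83 in the vehicle arrays, with the widest gap in the vehicle array of 3 h. The 5S rRNA control probe set read 5.67 to 6.65 (log2) in the NaF arrays, above the 4.90 to 5.46 of the vehicle arrays. The part of these differences in the results was not tested. In bulk RNA, fewer cells that express a gene and less of its RNA per cell cannot be told apart.

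Without NaF the 9 genes spanned a wide range of signal. The mean of the 4 vehicle arrays, at the brightest probe set of each gene, was 12.10 for Ccng1, 11.54 for Cdkn1a, 11.48 for Mdm2, 11.26 for Gadd45b, 11.08 for Gadd45a, 11.05 for Ei24, 9.47 for Aen, 9.14 for Gadd45g and 5.93 for Sesn1. Seen against all probe sets of the array, Ccng1 stood at percentile 98.8 of vehicle signal, Gadd45g at percentile 86.2 and Sesn1 near the middle. Probe sets differ in how strongly they bind, so these are positions of probe sets and not an order of mRNA amounts. Sesn1 was the only gene below the level needed for the test, a mean log2 signal of at least 6 over the 7 arrays. The other 8 genes, with 12 probe sets, were tested.

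**Figure D1:**
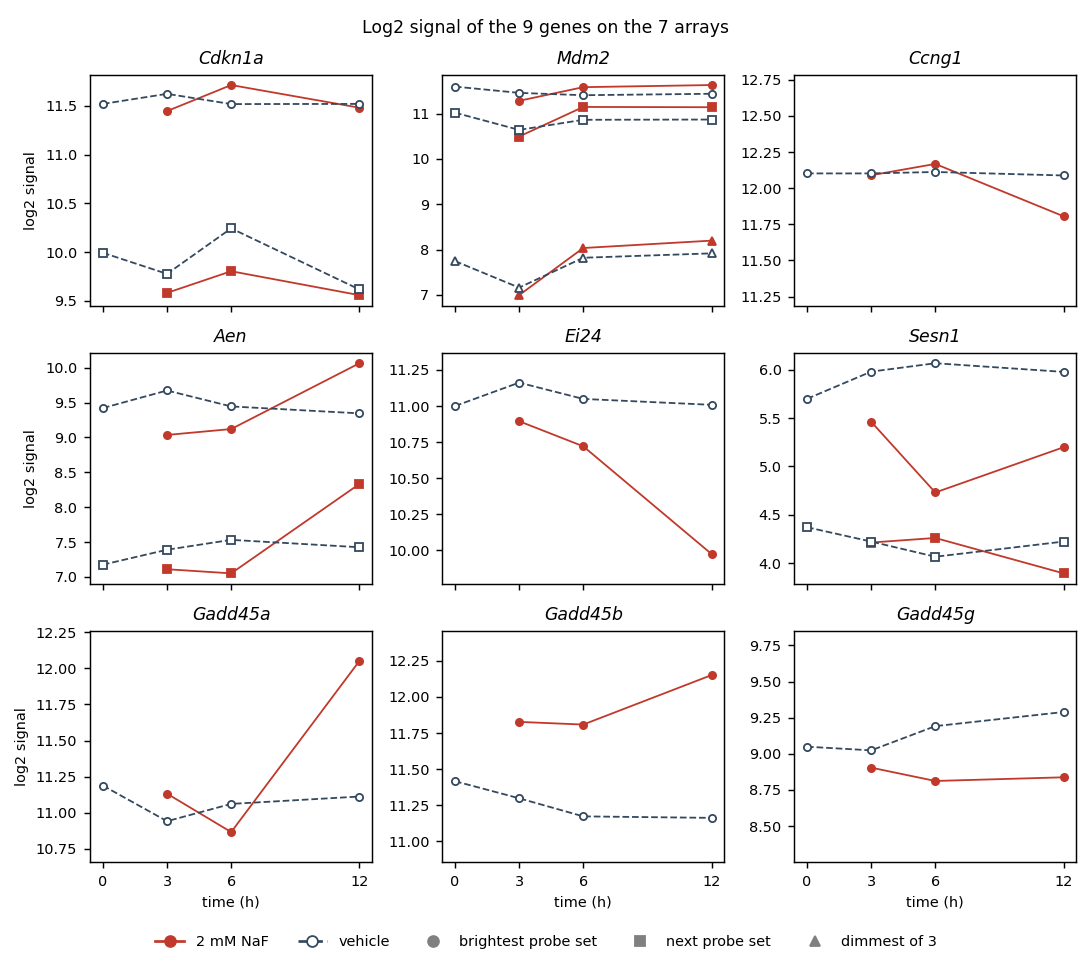
Log2 signal (vertical axes) of all 14 probe sets of the 9 genes against time in h (horizontal axes), for 2 mM NaF (filled, solid lines) and vehicle (open, dashed lines), with each point 1 array of pooled RNA. Gadd45b is above vehicle on every NaF array, Gadd45a and Aen are above all vehicle arrays at 12 h and not at 3 or 6 h, Ei24 falls away from vehicle, and Cdkn1a stays near it.

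In the test (limma), the difference between a NaF array and the vehicle mean was set against the spread of the 4 vehicle arrays, as if NaF arrays varied equally. For each probe set, limma first drew that spread toward 1 value estimated from all tested probe sets, an SD of 0.077. Variation between NaF experiments is not in these p-values, and that between vehicle pools of different times is. At an adjusted p under 0.05, at 3 h of NaF 1 of the 8 tested genes was higher and 0 lower, where 2.12% of all 13473 tested probe sets were higher and 4.71% lower. An unadjusted p under 0.05 was met there by 1 higher and 2 lower of the 12 probe sets, beside 1212 higher and 1907 lower of all 13473. At 6 h, 1 gene was higher and 1 lower, where 14.6% of the array was higher and 20.0% lower. At 12 h, 3 genes were higher (Gadd45a, Gadd45b and Aen) and 2 were lower (Ei24 and Ccng1), where 26.9% of all probe sets were higher and 29.5% lower. Over the 8 genes the median log2 change was -0.13, -0.07 and 0.05 at 3, 6 and 12 h, beside -0.01, 0.00 and -0.01 over all tested probe sets. The group thus moved in both directions, and its counts were of the order of the array as a whole.

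**Figure D2:**
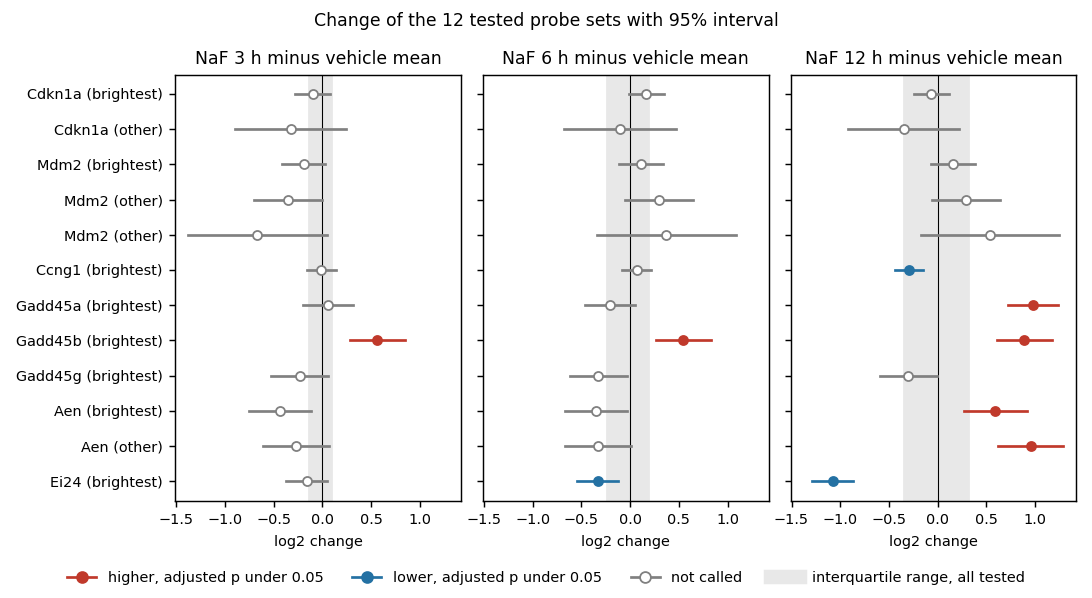
Log2 change of the 12 tested probe sets (rows, named by gene and by whether they are the brightest of the gene) at 3, 6 and 12 h of NaF against the mean of the 4 vehicle arrays, with 95% intervals from limma; the grey band is the interquartile range of all 13473 tested probe sets. Gadd45b was higher at each time (0.56, 0.55 and 0.89), and Ei24 was lowest at 12 h (-1.08).

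Cdkn1a encodes p21, the inhibitor of cyclin-dependent kinases that is the classic readout of p53. Its brightest probe set (1388674_at) read 11.45, 11.71 and 11.48 (log2 signal) at 3, 6 and 12 h of NaF, against 11.52, 11.62, 11.52 and 11.52 in the vehicle arrays of 0, 3, 6 and 12 h. The NaF array of 6 h was the highest of the 7 and those of 3 and 12 h the lowest, so the groups overlapped. The log2 changes were -0.10, 0.17 and -0.06, each with a standard error of 0.07 (adjusted p = 0.496, 0.128 and 0.49), and the 95% interval at 12 h ran from -0.24 to 0.12. The value at 6 h passed the test without the vehicle array of 3 h (limma adjusted p = 0.0489) and with a variance trend (0.0494). The dimmer probe set (1387391_at) read 9.58, 9.80 and 9.56 with NaF and 9.99, 9.78, 10.24 and 9.62 with vehicle. The groups overlapped again, with a vehicle SD of 0.27, and the changes of -0.33, -0.10 and -0.35 did not pass the test (limma adjusted p = 0.482, 0.775 and 0.246).

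Mdm2 encodes the ubiquitin ligase that marks p53 for destruction and is itself induced by p53. It was measured by 3 probe sets. The brightest (1383288_at) read 11.28, 11.58 and 11.63 with NaF at 3, 6 and 12 h, against 11.60, 11.46, 11.41 and 11.44 with vehicle at 0, 3, 6 and 12 h. The next (1384427_at) read 10.49, 11.15 and 11.14 with NaF and 11.02, 10.64, 10.86 and 10.87 with vehicle. The dimmest (1383485_at) read 6.995, 8.04 and 8.20 with NaF and 7.75, 7.16, 7.82 and 7.92 with vehicle. All 3 thus had their lowest value of the 7 arrays at 3 h of NaF, and 2 of them their highest at 12 h, the other (1384427_at) at 6 h by a small margin. Against the vehicle mean the changes were -0.19, -0.36 and -0.67 at 3 h (limma adjusted p = 0.279, 0.211 and 0.24) and 0.16, 0.29 and 0.54 at 12 h (limma adjusted p = 0.192, 0.129 and 0.162). The vehicle array of 3 h was also low on the dimmer probe sets, and against it alone the differences at 3 h were -0.18, -0.15 and -0.17. The dimmest passed the test at 3 h (-0.83, limma adjusted p = 0.0361) and 12 h (0.37, limma adjusted p = 0.0295) when the vehicle array of 3 h was left out, and the brightest at 12 h without the vehicle control (0.20, limma adjusted p = 0.0386). Between NaF arrays, Mdm2 was higher at 12 h than at 3 h by 0.35 (limma adjusted p = 0.0532), 0.65 (0.0318) and 1.20 (0.0412) on the 3 probe sets. Across all tested probe sets, 22.4% were higher and 22.1% lower in that comparison. The 2 calls were lost without the vehicle array of 6 h (limma adjusted p = 0.0771 and 0.084) or of 12 h (0.0732 and 0.0678), and that of 1383485_at also without the vehicle control (0.0924). Both were lost without a filter as well (0.0876 and 0.111). The brightest probe set, in turn, passed the test with a mean of at least 7 (0.0431), a highest value of at least 7 (0.0469), a variance trend (0.022) or without the vehicle control (0.0206).

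Ccng1, cyclin G1, is an atypical cyclin and an early identified target of p53. Its log2 signal was 12.09, 12.17 and 11.81 at 3, 6 and 12 h of NaF and 12.10, 12.10, 12.11 and 12.09 in vehicle. The vehicle arrays had an SD of 0.00995, the smallest of the 14 probe sets. limma drew this small spread up toward that of all tested probe sets, so the standard error it used was larger. The NaF array of 6 h lay above all vehicle arrays and that of 12 h below them all. The 12 h array had a log2 change of -0.30 (standard error 0.06, limma adjusted p = 0.00823). Its signal was 0.822 of that on the 12 h vehicle array, a difference at percentile 29.6 of all tested probe sets. At 3 and 6 h the log2 changes were -0.01 and 0.07 (limma adjusted p = 0.935 and 0.432). NaF at 12 h minus NaF at 3 h was -0.28 (limma adjusted p = 0.0274), a call lost without the 6 h vehicle array (0.0684), the 12 h one (0.05) or any filter (0.0616).

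Aen encodes a nuclease of the nucleus that p53 induces and that takes part in apoptosis. On its brightest probe set (1383491_at) the log2 signal was 9.04, 9.12 and 10.06 at 3, 6 and 12 h of NaF, against 9.42, 9.67, 9.44 and 9.34 in vehicle. The other probe set (1384997_at) read 7.11, 7.05 and 8.33 with NaF, against 7.18, 7.39, 7.53 and 7.43 with vehicle. On both, the NaF arrays of 3 and 6 h lay below every vehicle array and that of 12 h lay above every one. The early deficits of -0.44 and -0.27 at 3 h (limma adjusted p = 0.12 and 0.311) and -0.35 and -0.33 at 6 h (0.0886 and 0.116) did not pass the test. At 6 h the brightest passed it without the 3 h vehicle array (limma adjusted p = 0.043) and the other without the vehicle control (0.0309). At 12 h Aen rose by 0.59 (standard error 0.13, limma adjusted p = 0.0113) and 0.95 (standard error 0.14, limma adjusted p = 0.00256). Set against the vehicle array of 12 h, these were 1.65-fold and 1.88-fold. The swing between 3 and 12 h of NaF was 1.03 and 1.22 on the log2 scale (limma adjusted p = 0.00599 and 0.00414), the widest of the tested genes in that comparison at their brightest probe sets.

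Ei24 encodes a membrane protein of the endoplasmic reticulum that was found as a p53-induced gene and is needed for autophagy in mice. It read 10.89, 10.72 and 9.98 (log2 signal) at 3, 6 and 12 h of NaF, and 11.00, 11.16, 11.05 and 11.01 in vehicle. All 3 NaF arrays lay below all 4 vehicle arrays, as was the case for 14.3% of the tested probe sets. The log2 changes were -0.16 at 3 h (adjusted p = 0.333 in limma), -0.33 at 6 h (0.0301) and, at 12 h, -1.08 (standard error 0.08, limma adjusted p = 0.000482). It was the largest change of the 8 tested genes at 12 h. The signal was 0.489 of that on the 12 h vehicle array, a difference at percentile 4.71 of all tested probe sets. Ei24 at 12 h was also lower than at 3 h of NaF, with a log2 difference of -0.92 (limma adjusted p = 0.00275). Its 6 h call did not survive leaving out the 6 h vehicle array (limma adjusted p = 0.086) or the 12 h one (0.0616), nor testing without a filter on dim probe sets (0.0809). The calls at 12 h and between 12 and 3 h were kept under every alternative run, all of which used the same NaF arrays.

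Sesn1 encodes sestrin 1, an inhibitor of the growth kinase complex mTORC1. Its brighter probe set (1372248_at) lay at percentile 55.9 of vehicle signal, with 5.46, 4.73 and 5.20 at 3, 6 and 12 h of NaF and 5.70, 5.98, 6.07 and 5.98 in vehicle. The NaF arrays lay below the vehicle arrays without overlap, as for 14.3% of the tested probe sets, to which Sesn1 did not belong. At 6 h the signal was 2.52-fold lower than in the vehicle array of that time, just past the study's factor of 2.5, which 0.680% of all 31042 non-control probe sets passed downward and 0.715% upward at 6 h. No other probe set of the 9 genes passed that factor at any time. Of all probe sets, 0.151% passed it upward and 0.229% downward at 3 h, and 1.38% and 1.16% at 12 h. Because of its low signal Sesn1 entered a test only when no filter was used, and there its changes of -0.47, -1.20 and -0.73 had limma adjusted p = 0.277, 0.0159 and 0.0281. The other probe set (1395809_at), at 3.90 to 4.26 with NaF and 4.07 to 4.37 with vehicle, lay at percentile 35.4 of all probe sets and showed no separation.

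Of the 3 Gadd45 genes, Gadd45b passed the test as higher at each time, Gadd45a at 12 h and Gadd45g at none. Gadd45a read 11.13, 10.87 and 12.05 (log2 signal) at 3, 6 and 12 h of NaF, against 11.19, 10.94, 11.06 and 11.11 in vehicle. Up to 6 h it stayed in or just under the vehicle range, with changes of 0.06 and -0.21 (limma adjusted p = 0.805 and 0.172). At 12 h it rose by 0.98 (standard error 0.10, limma adjusted p = 0.00101), which was 1.92-fold over the vehicle array of 12 h. On that scale it stood at percentile 94.7 of all tested probe sets. NaF at 12 h exceeded NaF at 3 h by 0.92 (limma adjusted p = 0.00424).

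Gadd45b rose early and stayed up. Its log2 signal was 11.83, 11.81 and 12.15 with NaF at 3, 6 and 12 h, and 11.42, 11.30, 11.17 and 11.16 with vehicle at 0, 3, 6 and 12 h. The lowest NaF array exceeded the highest vehicle array by more than the whole range of the vehicle arrays, and 13.6% of the tested probe sets had all NaF arrays above all vehicle arrays. The rises were 0.56 at 3 h (standard error 0.11, limma adjusted p = 0.0478), 0.55 at 6 h (0.0169) and 0.89 at 12 h (0.00182), or 1.44-fold, 1.55-fold and 1.98-fold over vehicle of the same time. At 3 h it stood at percentile 98.2 of all tested probe sets and was the only called gene of the 8. Its 3 h call did not hold without the vehicle array of 3 h (limma adjusted p = 0.0987), 6 h (0.157) or 12 h (0.128), nor its 6 h call without that of 6 h (0.0541). Testing without a filter also ended both (0.139 and 0.0551). With the 3 NaF arrays taken as a group against the 4 vehicle arrays, Gadd45b was higher by 0.67 (standard error 0.12, limma adjusted p = 0.023) and was the only gene of the 8 called, where 3.74% of all tested probe sets were higher and 3.79% lower. That call ended when any single vehicle array was left out (limma adjusted p = 0.0693 to 0.0926), without the NaF array of 6 h (0.0698) and with time as a block (0.141). Whether the rise at 12 h exceeded that at 3 h could not be told from these arrays, with a difference of 0.32 (95% interval -0.04 to 0.68, limma adjusted p = 0.121).

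Gadd45g lay on the other side of vehicle. It read 8.90, 8.81 and 8.84 at 3, 6 and 12 h of NaF and 9.05, 9.02, 9.19 and 9.29 in vehicle. All NaF arrays again lay below all vehicle arrays, as was the case for 14.3% of the tested probe sets. The changes of -0.23, -0.33 and -0.30 did not pass the test at any time (limma adjusted p = 0.312, 0.0829 and 0.0745). As a group, the 3 NaF arrays differed from vehicle by -0.29 (standard error 0.09, limma adjusted p = 0.0911). Vehicle was itself higher at 12 h than at 3 h, and time by time the differences from vehicle were -0.12, -0.38 and -0.45.

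The brightest probe sets of some genes had profiles close to those of the members over the 7 arrays, among 1471 other tested genes that spanned at least 1 log2 unit. Gadd45a was most like Usp36 (r = 0.982), a nucleolar deubiquitinase, Krr1 (0.955), a ribosome assembly factor, and Sel1l (0.952), a subunit of the ER-associated degradation complex, and these were the only 3 with an r of at least 0.95. Aen was most like Atmin (0.991), Rrs1 (0.986) and Ddx20 (0.984), with 18 genes at that level. Ei24 had 259 genes at that level, led by Pycard (0.996), Fdps (0.995) and Rflnb (0.995). Sesn1, matched against 1472 genes, was most like Ube2t (0.993), Zfp90 (0.993) and Ift70b (0.990), with 88 at that level. The points are 7 pooled arrays that share the NaF treatment, so these correlations describe a shape. The other 5 genes spanned less than 1 log2 unit and were not matched.

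Other known targets of p53 were called in both directions. Of 29 listed, 21 had a probe set and 18 were tested. At 3 h 1 was higher and 2 were lower, where 2.12% of the whole array was higher and 4.71% lower. At 6 h 3 were higher and 5 lower, beside 14.6% and 20.0%. At 12 h 4 were higher and 7 lower, beside 26.9% and 29.5%. The list had a median log2 change of -0.17 at 12 h beside -0.01 over all tested probe sets. Gdf15, a secreted stress cytokine, read 5.77, 7.41 and 7.78 with NaF and 5.46 to 5.82 with vehicle, with log2 changes of 1.80 and 2.17 at 6 and 12 h (adjusted p = 0.00127 and 0.000377 in limma). Its vehicle mean of 5.61 is below the level of 6, so it entered the test only through its high NaF arrays, and it is 1 of the genes counted as higher. Sesn2, the sestrin related to Sesn1, rose at every time, by 0.55, 1.03 and 1.89 (limma adjusted p = 0.0226, 0.00127 and 0.000266), while the brighter Sesn1 probe set lay below vehicle. Ccng2, the other G-type cyclin, changed by -0.64, -1.41 and -1.29 (limma adjusted p = 0.0605, 0.00205 and 0.00118). Bbc3, which encodes the death-promoting protein PUMA, was chosen after its values were seen, and its log2 changes were -1.10, -0.83 and -0.19 at the 3 times (adjusted p = 0.00406, 0.00188 and 0.101 in limma).

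Of 22 listed genes of p53 and its regulators, 17 had a probe set and were tested. At 3 h limma called 0 of the 17, where 2.12% of the whole array was higher and 4.71% lower. An unadjusted p under 0.05 in limma was met there by 2, both lower. It was met by 1212 higher and 1907 lower of all 13473 tested probe sets. At 6 h 2 were higher and 8 lower, beside 14.6% and 20.0%. At 12 h 3 were higher and 6 lower, beside 26.9% and 29.5%. Tp63, the p53 relative of basal epithelium, fell by 0.80 at 12 h (limma adjusted p = 0.00872), and Atr, a kinase of the replication stress checkpoint, fell by 0.66 (0.00486). Chek2, a kinase that phosphorylates p53, fell by 0.82 at 6 h (adjusted p = 0.0461 in limma), and its 12 h value of -0.63 did not pass the test (0.0684). The median log2 change of the list was -0.07, -0.20 and -0.11 at 3, 6 and 12 h, beside -0.01, 0.00 and -0.01 over all tested probe sets.

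Of 10 listed partners of p21, which are cyclins, their kinases and Pcna, 9 were tested. At 3, 6 and 12 h 3, 5 and 8 were lower and 0 higher, while Cdkn1a did not pass the test. Of all tested probe sets, 4.71%, 20.0% and 29.5% were lower at these times and 2.12%, 14.6% and 26.9% higher. Ccnd1, the growth-factor-dependent cyclin D1, fell by 1.13 at 12 h (limma adjusted p = 0.000474) and Ccne1, cyclin E1, by 0.89 (0.000551). Ccna2, cyclin A2, fell by 0.66, 1.65 and 0.74 at 3, 6 and 12 h (limma adjusted p = 0.00782, 0.000713 and 0.000645). The list median at 12 h was -0.43, beside -0.01 over all tested probe sets.

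Of 12 genes listed as partners of the Gadd45 proteins, 9 had a probe set and 7 were tested. Besides the binding partners named above (Map3k4, Cdk1 and Pcna), the tested genes were Map2k3, Mapk8, Mapk14 and Ccnb1. At 12 h 5 were lower and 1, Map2k3, was higher, with a median log2 change of -0.38. Over the whole array 29.5% were lower and 26.9% higher. At 6 h 4 were lower and 0 higher, where 20.0% of the whole array was lower and 14.6% higher. At 3 h limma called 0, where 4.71% of the whole array was lower and 2.12% higher. An unadjusted p under 0.05 in limma was met there by 3, each lower. It was met by 1907 lower and 1212 higher of all 13473 tested probe sets. Map3k4, the kinase that Gadd45 proteins activate, read 8.15, 7.76 and 7.35 with NaF at 3, 6 and 12 h against 8.15 to 8.42 with vehicle, with log2 changes of -0.57 and -0.99 at 6 and 12 h (adjusted p = 0.0175 and 0.00155 in limma). Ccnb1, cyclin B1, fell by 1.37 and 0.61 at these times (adjusted p = 0.00387 and 0.0302), and its kinase Cdk1 by 0.43 and 0.47 (adjusted p = 0.0253 and 0.011). Pcna stands in both lists of partners, and Ppm1d in both lists around p53. Gadd45a and Gadd45b were thus higher at 12 h on the same array on which most tested genes of the Gadd45 partner list were lower.

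**Figure D3:**
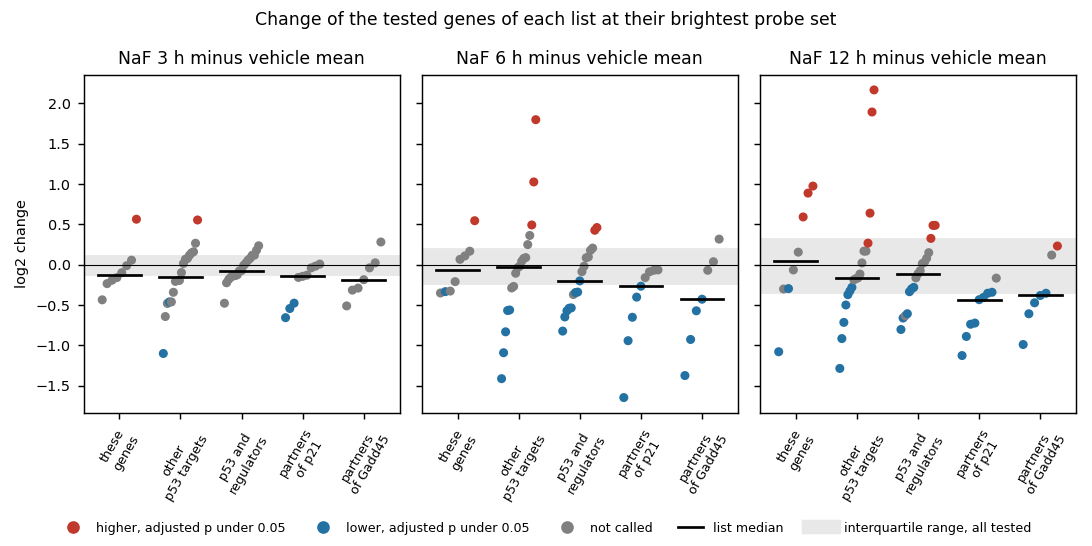
Log2 change against the mean of the 4 vehicle arrays (vertical axes) at 3, 6 and 12 h of NaF, with each point 1 tested gene at its brightest probe set, in 5 lists from left to right: the 8 tested genes of the group described, other p53 targets, p53 and its regulators, partners of p21 and partners of Gadd45. Short lines are list medians and the grey band is the interquartile range of all tested probe sets. At 12 h the p21 partners have a median of -0.43 with 8 of 9 lower, where 29.5% of all tested probe sets were lower. Both sets of p53 targets hold genes called in either direction.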

How the data were processed

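The authors pooled RNA of 3 experiments per condition, labeled it with a 3' IVT kit, hybridized 7 Affymetrix rat genome arrays and analyzed them in GeneSpring GX. The deposited log2 signals per probe set had nearly equal medians across arrays. The sources used here do not say how they were normalized, and detection calls were not used here. Values were used as deposited. Gene symbols came from the platform annotation of 2016, in which 20832 had 1 symbol, 436 several and 9831 none. The 57 control probe sets were left out. Probe sets with a mean log2 signal of at least 6 over the 7 arrays (13473) were tested with limma 3.58.1 in R 4.3.3 (lmFit, eBayes, Benjamini-Hochberg over all of them), with 3 residual and 2.60 prior degrees of freedom. A further fit compared the 3 NaF with the 4 vehicle arrays. The fits were tested on simulated data in which NaF arrays varied like vehicle arrays and 200 probe sets changed equally on every NaF array. The fit of the single 12 h array recovered 19.5%, 82% and 98% of log2 changes of 0.5, 1 and 2, with 1, 7 and 7 false calls. The fit of the grouped NaF arrays recovered 73%, 97.5% and 100%, with 12, 17 and 16 false calls. A small change that did not pass the test is therefore not shown to be absent. In the data many more probe sets were called at 12 h (3624 higher and 3980 lower), so these recovery shares need not hold there. A gene was read at its brightest probe set. Up to 3 genes per other list were named, by largest change at 12 h (Bbc3 was added after its values were seen), and up to 3 with the highest r per member. The members and lists were chosen with earlier results of these data known. Alternatives were other filters, scalings, baselines and folds, a variance trend and each vehicle array left out. For the 3 NaF arrays as a group, they also included time as a block and each NaF array left out. Protein sequences were not used here. The number of arrays limits the precision.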

Additional observations from a re-analysis of the deposited data

Results flagged for a closer look

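Between 3 and 12 h of NaF the change differed, by limma's test of the difference, for 7 of the 12 tested probe sets (22.4% of all tested probe sets were higher and 22.1% lower in that comparison). The differences, NaF 12 h minus NaF 3 h on the log2 scale, were 0.648 and 1.20 for the dimmer probe sets of Mdm2, -0.284 for Ccng1, 0.919 for Gadd45a, 1.03 and 1.22 for Aen, and -0.919 for Ei24. Among the vehicle arrays, the 3 h array of the brightest Cdkn1a probe set lay apart from the other 3, with a gap of 0.985 of the whole range, though that range was only 11.52 to 11.62. The limit used for such a gap is one that about 1 in 20 groups pass by chance, and 14 probe sets were looked at.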

How the results depend on the processing

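The 6 calls among the 12 tested probe sets at 12 h were kept under all 10 alternatives run, which gave 6 or 7 calls. The added call was Sesn1 without a filter and Mdm2 without the vehicle control or the 3 h vehicle array. All of these alternatives kept the lone NaF array of 12 h, so they cannot show how far the calls depend on it. Earlier calls were less stable. Without a filter there were 0 calls at 3 h (3 of 14 probe sets at an unadjusted p under 0.05 in limma), 1 at 6 h and 4 between 12 and 3 h, against 1, 2 and 7. Leaving out each vehicle array in turn gave 0 to 1 calls at 3 h, 0 to 4 at 6 h and 4 to 7 between 12 and 3 h, with 0 at 3 and 6 h without the 6 h array (2 each at an unadjusted p under 0.05) and 0 at 3 h without the 12 h array (2). The 3 NaF against 4 vehicle arrays gave 1 call, 0 to 2 when each array was left out, and 0 with time as a block (2 at an unadjusted p under 0.05), where limma called 0 probe sets of the whole array (1108 higher and 1670 lower at an unadjusted p under 0.05). Labels gave no replicate numbers, and each condition was 1 array of pooled RNA. No paired analysis was therefore possible, other than by time. Ccng1 at 3 h changed sign with equal medians (0.00519) and quantile normalization (0.0177), and the dimmer Cdkn1a at 6 h without the 6 h vehicle array (0.00845, in a range of -0.20 to 0.00845 over the arrays left out); none of these was called. Past the fold, 1 gene at 6 h became 0 with the mean of the 4 vehicle arrays or the vehicle control as baseline or with probe sets averaged, and a factor of 2 gave 1 gene, Ei24, at 12 h. Over all probe sets, calls at 3 h were 285 higher and 634 lower, 73 and 150 without a filter, 502 and 822 after quantile normalization, and as few as 22 and 60 without the 6 h vehicle array. At 6 h, 1969 higher became 1069 without that array. With the NaF arrays as a group, 504 higher and 511 lower ranged over 32 to 1704 and 12 to 1786 when each array was left out, and were 236 lower without a filter. The causes were not tested.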
